A study of Mus musculus with 12 samples.

Results

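Isoform usage, the split of a gene's RNA among its transcripts, was compared between all kidneys after ischemia-reperfusion injury (IRI) and all sham-operated kidneys. A gene entered when the deposited table held at least 2 of its transcripts and when their summed level was at least 5 FPKM (a level scaled to transcript length and library size) in all 12 libraries. This left 3615 of 13465 genes and 11532 of 25740 transcripts, of which 1607 genes had 2 transcripts and 2008 had 3 or more. The highest number of transcripts in a gene was 19. Among the other genes, 7110 had 1 transcript and 2740 fell below the minimum. Tcof1, Neo1 and Sirt5 lay just outside the minimum, with lowest sums of 4.988, 4.993 and 4.995 FPKM, and Fdft1, Hook3 and Spg20 lay just inside it, at 5.005, 5.006 and 5.006 FPKM.

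Bulk RNA sequencing covered 4 groups of mouse renal cortex with 3 libraries each. By its labels, the study deleted Gpx3, which encodes a glutathione peroxidase of plasma, in the tubular epithelium of the CKO IRI mice, and these underwent 30 min of bilateral renal ischemia and 48 h of reperfusion. WT IRI mice carried Gpx3 and underwent the same injury, CKO sham mice had the deletion without the injury, and WT sham mice had neither. The groups are called by these labels throughout. The sum of Gpx3, the targeted gene, was 3723, 3025 and 2779 FPKM in the libraries labelled CKO IRI 7, 15 and 29 and 2788, 3568 and 1075 FPKM in those labelled WT IRI 13, 24 and 49. It was 2501, 3037 and 3299 FPKM in those labelled CKO sham 1, 2 and 3 and 5664, 4476 and 5371 FPKM in those labelled WT sham 1, 2 and 3. In sham every library labelled CKO was thus below every library labelled WT, whereas after IRI the libraries labelled CKO were not lower and overlapped those labelled WT, so the level of Gpx3 does not bear out the genotype labels of the injured libraries. The labels do not name the deleted exons. Neither the Cre driver nor the age of the mice is stated in the labels. No label says whether each library was 1 mouse, and the p-values therefore rest on a spread that may be technical.

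Most mammalian genes give rise to several transcripts, through alternative promoters, alternative splicing of internal exons and alternative ends. Some alternatives change the protein, and others change only the untranslated ends, which can alter translation and stability of the messenger RNA. In short-read data the level of each transcript is an estimate, because most reads fall in sequence that several transcripts share. The share of a transcript is its FPKM as a percentage of the gene's sum, and a difference between shares is given in percentage points.

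The sequences by which the leading transcripts differ come first, since they show how much or how little separates them. All transcripts are those of GENCODE M21 on mouse build GRCm38. For Rpl38, which encodes a protein of the large ribosomal subunit, the start region on the plus strand is chr11:114668424-114668547. Its capitals are the 24 bases that lie between the start of Rpl38-204 (ENSMUST00000106602) and the start of Rpl38-201 (ENSMUST00000077915), as given in the promoter table of RefSeq (GRCm38.p6).
Rpl38 start region: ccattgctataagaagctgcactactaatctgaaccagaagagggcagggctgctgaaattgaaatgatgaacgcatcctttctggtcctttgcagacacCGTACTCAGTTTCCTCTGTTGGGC
The starts of the 4 deposited Rpl38 transcripts lie within 102 bases, and all 4 carry the same coding sequence of 210 bases.

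For Cdkn2c, which encodes an inhibitor of the cyclin D-dependent kinases, the region before the start of Cdkn2c-201 (ENSMUST00000063531) on the minus strand is chr4:109665373-109665622, from the RefSeq promoter table. Its capitals are the last 13 bases of the first exon of Cdkn2c-202 (ENSMUST00000097921), a transcript that starts 1817 bases further upstream.
Cdkn2c-201 upstream region: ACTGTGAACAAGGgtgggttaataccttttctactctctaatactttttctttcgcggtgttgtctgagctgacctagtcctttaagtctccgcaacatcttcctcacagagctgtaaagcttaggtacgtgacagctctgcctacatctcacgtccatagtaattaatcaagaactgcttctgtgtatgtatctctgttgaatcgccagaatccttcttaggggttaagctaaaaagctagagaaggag
Both transcripts hold the same coding sequence of 504 bases, and they measure 2471 bases (Cdkn2c-202) and 1106 bases (Cdkn2c-201) in all.

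For Serpinb6a, an intracellular inhibitor of serine proteases, Serpinb6a-201 (ENSMUST00000017188) has 63 coding bases, or 21 codons, before the start codon that Serpinb6a-203 (ENSMUST00000076532) uses. The run below joins the coding parts of neighbouring exons within chr13:33931634-33935679 on the minus strand, and its capitals are the start codon of the shorter reading frame.
Serpinb6a-201 coding bases before the shared start codon: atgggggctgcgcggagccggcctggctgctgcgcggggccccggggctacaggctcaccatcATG
For Khk, which encodes the fructose-phosphorylating enzyme ketohexokinase, the leading kidney transcript Khk-204 has an exon of 135 bases that Khk-203 lacks. This exon lies at chr5:30927022-30927156 on the plus strand.
Khk-204 exon 3, not in Khk-203: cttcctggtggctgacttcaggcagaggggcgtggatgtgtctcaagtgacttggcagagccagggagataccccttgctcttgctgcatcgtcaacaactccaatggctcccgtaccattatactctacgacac

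The libraries summed to 391002 to 422328 FPKM over the whole table, of which the tested genes held 49% to 53.4%, and the read depth is unknown. In the labelled tissue all 6 markers of the proximal tubule were above 1 FPKM in every library, with sums of 1013 to 2260 FPKM after IRI and 2434 to 3435 FPKM in sham. Markers of fibroblasts and smooth muscle summed to 154 to 398 FPKM after IRI and 50.7 to 84.7 FPKM in sham, and those of the endothelium to 22.8 to 55.1 FPKM after IRI and 67.5 to 110 FPKM in sham. Of 7 joint and muscle markers only 2 were measured, and they summed to 1.03 to 2.01 FPKM after IRI and 0.68 to 1.63 FPKM in sham. Fewer cells of a type and less RNA per cell cannot be told apart in bulk tissue, and the part of cell composition in the share differences was not tested. The library WT IRI 13 stood furthest from the rest, with correlations of shares of 0.825 to 0.847 with the other libraries (a description across transcripts), and values of Rpl38, S100a6, Clu and Khk are also given without it.

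At 48 h of reperfusion the shares of a few genes differed between IRI and sham in every library. Across the tested genes the median of the largest absolute difference of any transcript was 4.41 points. The median SD of a share between replicates was 2.71 points in CKO IRI, 3.51 in WT IRI, 2.95 in CKO sham and 2.38 in WT sham. A transcript was called at a Benjamini-Hochberg adjusted p under 0.05 (limma on the log ratio of a transcript to the rest of its gene, with genotype as a covariate) and a difference of at least 10 points. Under this rule 5 transcripts (0.0434%) in 3 genes (0.083%) were called, namely Rpl38-204, Rpl38-201, Cdkn2c-202, Cdkn2c-201 and Serpinb6a-201. Without the requirement of 10 points the number was 13 transcripts (0.113%) in 7 genes (0.194%), and at an unadjusted p under 0.05 it was 1492 transcripts (12.9%) in 894 genes (24.7%).

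The count of called genes depended strongly on the fit. Array weights, which give noisy libraries less influence, called 22 genes (0.609%), and limma's diffSplice called 67 genes (1.85%). Both included the 3 genes above. Leaving out the single library CKO sham 1 raised the count to 17 genes (0.47%). Fitted alone, with 3 libraries against 3, the CKO libraries called 6 genes (0.166%) and the WT libraries 34 genes (0.941%), and each of these included 1 of the 3 genes. By a criterion without a model, 138 transcripts (1.2%) had shares that did not overlap between the 6 IRI and the 6 sham libraries, and in 36 genes (0.996%) such a transcript also differed by at least 10 points.

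**Figure D1:**
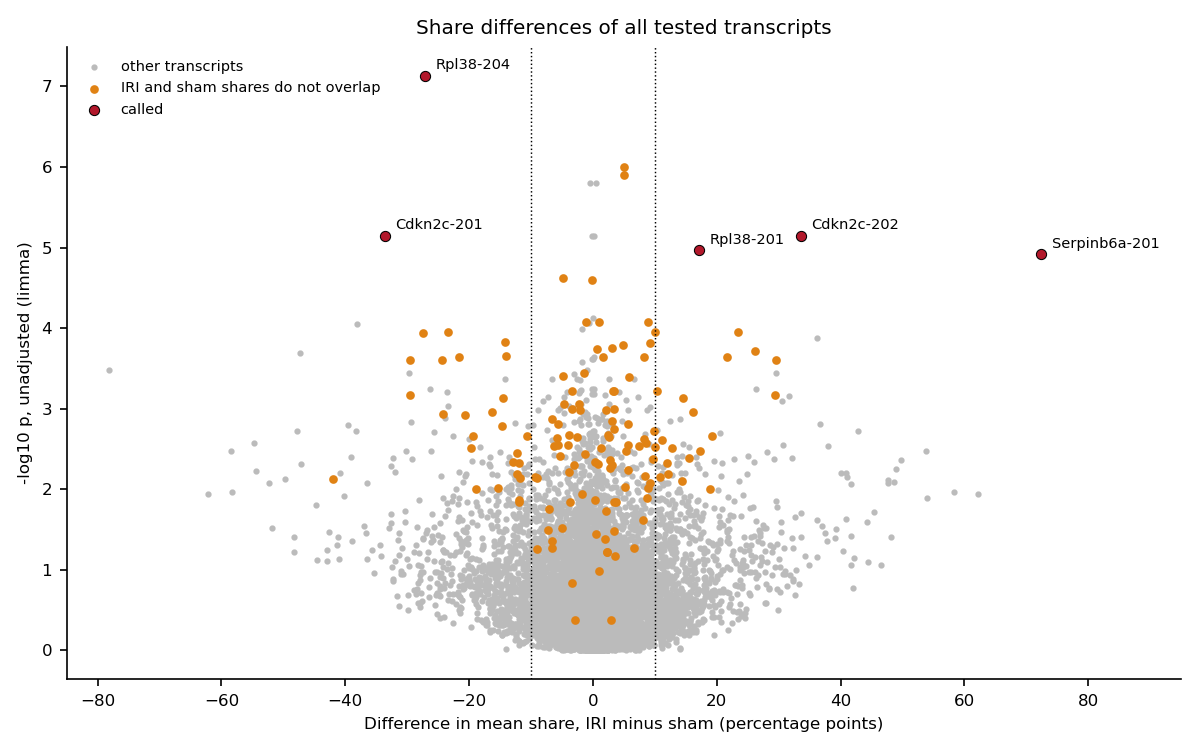
The difference in mean share of each tested transcript, IRI minus sham, is plotted in percentage points against the negative decadic logarithm of its unadjusted limma p. Red points are the 5 called transcripts, orange points are transcripts whose shares did not overlap between the 6 IRI and 6 sham libraries, and dotted lines mark 10 points in either direction. Many transcripts that differ by more than 20 points lie below the called ones on the p axis.

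Rpl38 gave the smallest p of all genes. Rpl38-204 held 38.9%, 39.2% and 44.8% of the gene in CKO IRI 7, 15 and 29 and 43.6%, 44.3% and 42.6% in WT IRI 13, 24 and 49. In sham it held 65.7%, 70.3% and 70.3% in CKO 1, 2 and 3 and 71.9%, 68.4% and 69.7% in WT 1, 2 and 3. Every IRI library was thus below every sham library, with a wide gap and in both genotypes. The mean was 42.2% ± 2.6 after IRI and 69.4% ± 2.1 in sham (SD, n = 6 each), so that the share of Rpl38-204 fell by 27.15 points (limma adjusted p = 0.00085).

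Because the shares of a gene add up to the whole, a lower share of Rpl38-204 means a higher summed share of the other 3 transcripts. These start downstream of it, and the values below show how that rise was divided among them. Rpl38-201 held 37.03% to 49.03% after IRI (median 43.2%) and 23.4% to 29.8% in sham (median 25.7%), a rise of 17.1 points (limma adjusted p = 0.01245). That call was lost without WT IRI 49 (adjusted p = 0.0511) and without WT sham 1 (adjusted p = 0.0515), with a difference of 16.7 points in each case. It was also lost in the CKO libraries alone (adjusted p = 0.379), in the WT libraries alone (0.167) and with diffSplice (0.935), which called Rpl38 through Rpl38-204. Rpl38-202 held 5.37% to 9.16% after IRI and 2.09% to 2.86% in sham, and Rpl38-203 held 6.97% ± 1.83 after IRI and 1.99% ± 0.31 in sham (SD, n = 6 each; limma adjusted p = 0.003645 for both). These minor transcripts also separated the groups in all 12 libraries, with differences of 5.04 and 4.97 points.

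On the scale of levels, the gene rose while Rpl38-204 stood at nearly the same mean. The gene's sum was 534 ± 187 FPKM after IRI and 330 ± 65 FPKM in sham (SD, n = 6 each; log2 change 0.66, limma adjusted p = 0.0269). Rpl38-204 averaged 228 FPKM in both groups, with a range of 151 to 394 FPKM after IRI and 181 to 287 FPKM in sham. Rpl38-201 measured 191 to 334 FPKM after IRI and 65.8 to 130 FPKM in sham, without overlap. WT IRI 13 held the highest level of each of the 4 transcripts. Among the injured libraries it also had the highest shares of Rpl38-202 and Rpl38-203 and the lowest share of Rpl38-201, and only its share of Rpl38-204 lay inside the range of the others. Without that library the gene's sum after IRI was 461 ± 57 FPKM (SD, n = 5), and its excess over sham was 131 FPKM, against 204 FPKM with it (log2 change 0.48, limma adjusted p = 0.0239). Without it the share of Rpl38-204 fell by 27.2 points (limma adjusted p = 0.00188), and that of Rpl38-201 rose by 18.2 points (adjusted p = 0.0103).

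Cdkn2c changed both its level and the balance between its 2 transcripts. The gene's sum was 19.7 ± 1.9 FPKM after IRI and 8.29 ± 1.21 FPKM in sham (SD, n = 6 each; log2 change 1.17, limma adjusted p = 1.35e-05). Cdkn2c-202, the transcript with the upstream first exon, held 61.99%, 45.48% and 59.99% of the gene in CKO IRI 7, 15 and 29 and 69.8%, 71.8% and 67.5% in WT IRI 13, 24 and 49. In sham it held 22.3%, 19.9% and 23.5% in CKO 1, 2 and 3 and 26.0%, 42.4% and 40.8% in WT 1, 2 and 3. The lowest injured library, CKO IRI 15, was above the highest sham library, WT sham 2, by a narrow margin. The share of Cdkn2c-202 rose by 33.6 points (limma adjusted p = 0.00922), with a rise of 33.9 points within CKO and of 33.3 points within WT. Within the genotypes alone, with 3 libraries against 3, neither fit passed the threshold (limma adjusted p = 0.379 in CKO and 0.141 in WT). The call also depended on the genotype covariate: the shares of Cdkn2c-202 were lower in CKO than in WT without overlap, both after IRI and in sham, and without a genotype term the adjusted p was 0.05133.

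In FPKM, Cdkn2c-202 measured 8.54 to 14.8 after IRI and 1.87 to 3.14 in sham, so its levels were far apart. Cdkn2c-201 measured 5.53 to 10.2 FPKM after IRI and 3.83 to 7.97 FPKM in sham, and these ranges overlapped. The higher sum after IRI was thus mostly carried by the longer transcript. Because both carry the same coding sequence, the annotated protein is the same.

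**Figure D2:**
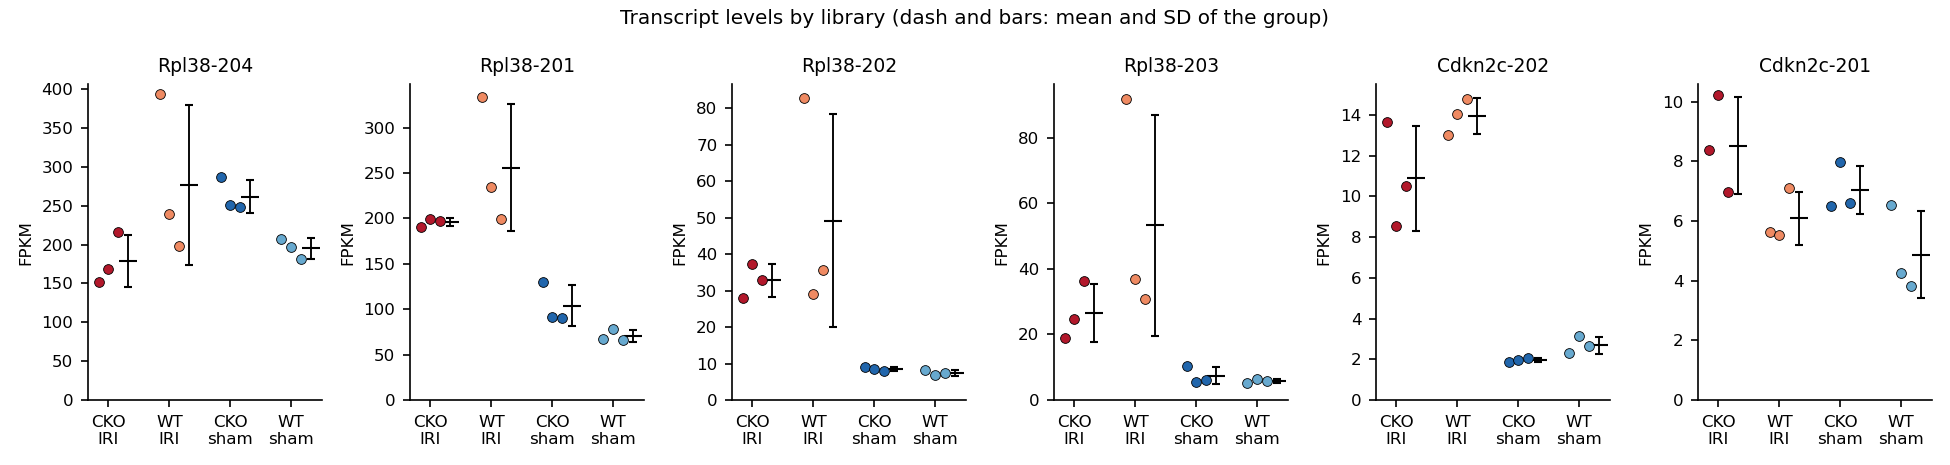
Levels in FPKM of the 4 Rpl38 transcripts and both Cdkn2c transcripts are shown by library in the 4 groups, with the mean and SD of each group of 3 beside the points. Rpl38-204 and Cdkn2c-201 overlap between IRI and sham, whereas the other 4 transcripts are higher in every injured library; each panel has its own axis from 0.

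Serpinb6a showed the largest difference among the called transcripts, together with the widest spread in sham. Serpinb6a-201 held 78.3%, 85.5% and 78.7% of the gene in CKO IRI 7, 15 and 29 and 93.5%, 89.1% and 83.4% in WT IRI 13, 24 and 49. In sham it was listed at 0 in CKO 1, 2 and 3 and in WT 3, and it held 66.5% in WT sham 1 and 7.40% in WT sham 2. The injured libraries were uniform, and WT sham 1 stood apart from the other sham libraries. The share of Serpinb6a-201 rose by 72.4 points (limma adjusted p = 0.0127), and by 82.9 points without WT sham 1 (adjusted p = 5e-05). The call was lost without CKO IRI 29 (72.95 points, adjusted p = 0.05458) and without WT sham 2 (68.1 points, adjusted p = 0.051). It was also lost in the WT libraries alone (64.0 points, adjusted p = 0.2415) and without CKO sham 1 and WT IRI 13 together (71.2 points, adjusted p = 0.0607), and it held in the CKO libraries alone (80.8 points, adjusted p = 0.0077).

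The sham libraries did not share a leading Serpinb6a transcript. Serpinb6a-202 led in CKO sham 1 with 91.6%, Serpinb6a-206 in CKO sham 2 with 70.4%, and Serpinb6a-203 in CKO sham 3, WT sham 2 and WT sham 3 with 70.1%, 79.1% and 69.9%. The transcripts begin in 2 places, 66798 bases apart between Serpinb6a-203 and Serpinb6a-201. The 4 transcripts that start near Serpinb6a-201 together held 94.5% to 98.5% of the gene in the 6 IRI libraries, against 17.1% to 96.3% in the 6 sham libraries. Summed in this way, a grouping chosen after the values were seen, the injured libraries were uniform and the sham libraries ranged widely and overlapped them. The gene's sum was 45.3 ± 16.9 FPKM after IRI and 14.4 ± 1.7 FPKM in sham (SD, n = 6 each; log2 change 1.51, limma adjusted p = 0.00023). The lower total in sham and the scatter of its shares stood side by side, and their relation was not tested.

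**Figure D3:**
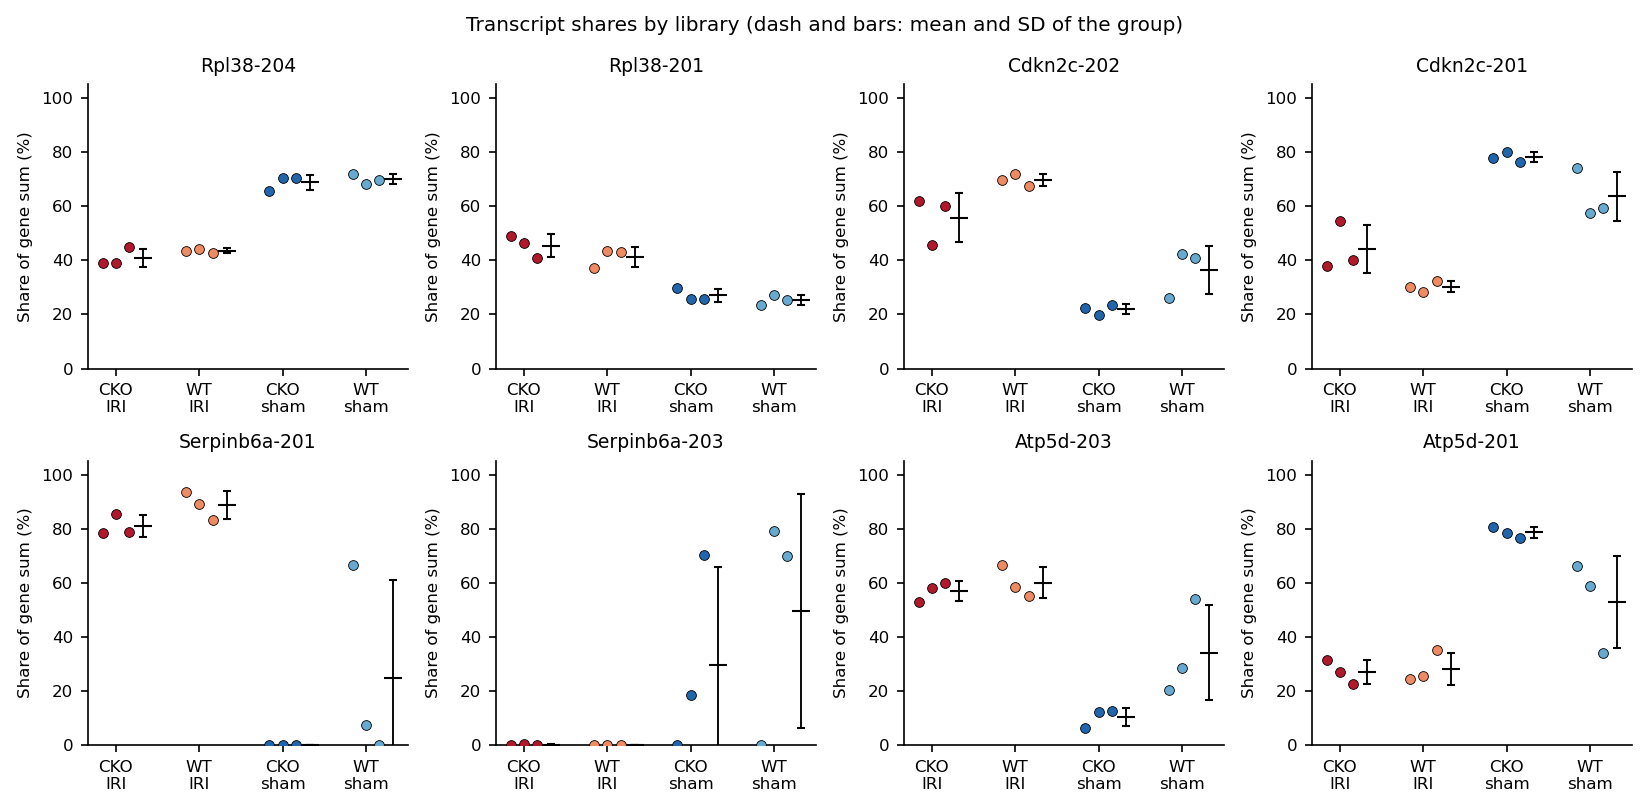
Shares of the gene sum (%) are shown by library for transcripts of Rpl38, Cdkn2c, Serpinb6a and Atp5d in the 4 groups, with the mean and SD of each group of 3 beside the points; the axes begin at 0, where some bars end. Rpl38 and Cdkn2c separate IRI from sham in both genotypes, with Cdkn2c-202 lower in CKO than in WT in both conditions, while Serpinb6a and Atp5d spread most in sham.

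Among the other genes of smallest p, 4 passed the adjusted threshold with changes of under 10 points, each with a transcript of small share. They were S100a6, a calcium-binding protein gene, Tubb5, a beta-tubulin gene, Tmpo, which encodes nuclear lamina-associated proteins, and Clu, which encodes the secreted chaperone clusterin. S100a6 and Tubb5 have 2 deposited transcripts each, so their dominant transcripts passed too, as mirror images of the minor ones. Tmpo-205 held 1.78% to 3.20% after IRI and 5.05% to 10.5% in sham, and its share fell by 4.91 points (limma adjusted p = 0.0227). That share fell as the gene's sum rose, with 30.3 ± 5.6 FPKM after IRI and 14.9 ± 0.8 FPKM in sham (SD, n = 6 each). S100a6-203 averaged 0.70% after IRI and 0.25% in sham, and its ranges overlapped, while the gene's sum was 283 ± 166 FPKM after IRI and 14.8 ± 6.2 FPKM in sham (SD, n = 6 each). Tubb5-202 averaged 0.56% after IRI and 0.73% in sham, and Clu-206 averaged 0.05% after IRI and 0.14% in sham. Without WT IRI 13, the library with the most S100a6, its sum after IRI was 221 ± 74 FPKM (SD, n = 5). In that fit the share of S100a6-203 was still higher, by 0.30 points, while Clu-206 no longer passed (limma adjusted p = 0.0504). The limma adjusted p of S100a6-203 there, 0.00228, belongs to its log ratio, which was lower after IRI, opposite to the share. Every deposited row averaged at least 0.5 FPKM in some group, a level that S100a6-203 reached only after IRI. Its higher share after IRI is therefore only a description. S100a6-203 measured 0 to 0.19 FPKM in sham, below the pseudocount, while the rest of the gene was far higher after IRI. For such transcripts the tested log ratio depends on the pseudocount of 0.5 FPKM and on the gene's sum, and the dominant transcript of each of S100a6, Tubb5 and Clu held over 96% in every library.

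Atp5d and Khk, both genes of energy metabolism, lay just past the threshold. Atp5d encodes the delta subunit of mitochondrial ATP synthase. Atp5d-203, which starts 858 bases upstream of Atp5d-201 and has the same coding length of 504 bases, held 53.02% to 66.37% after IRI (median 58.29%) and 6.39% to 53.86% in sham (median 16.45%). Its ranges overlapped through 1 library, WT sham 3. Atp5d-201 held 22.4% to 35.0% after IRI (median 26.3%) and 33.8% to 80.8% in sham (median 71.3%), a difference of -38.1 points (limma adjusted p = 0.0538). The gene's sum was 353 ± 57 FPKM after IRI and 407 ± 68 FPKM in sham (SD, n = 6 each), a difference that did not pass at gene level (limma adjusted p = 0.2767).

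Khk-203, which lacks the exon printed above and is annotated with an incomplete end, held 4.43%, 5.58% and 7.84% in CKO IRI 7, 15 and 29 and 23.9%, 17.1% and 7.60% in WT IRI 13, 24 and 49. In sham it held between 1.74% and 2.53%. All 6 injured libraries were above all sham libraries, with the highest values in WT IRI 13 and 24. The difference of 8.84 points had a limma adjusted p of 0.0538, and without WT IRI 13 it was 6.92 points (adjusted p = 0.0504). Khk-204 remained the leading transcript in all 12 libraries, with 65.5% to 87.4% after IRI and 87.2% to 90.6% in sham. The gene's sum was 170 ± 67 FPKM after IRI and 276 ± 16 FPKM in sham (SD, n = 6 each; log2 change -0.79, limma adjusted p = 0.01363).

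The remaining genes of smallest p had adjusted p between 0.0538 and 0.0663, so none was called. Anapc11, the catalytic RING subunit of the anaphase-promoting complex, had 91.6% ± 3.5 of its sum in Anapc11-202 after IRI and 68.1% ± 9.7 in sham (SD, n = 6 each). Oaz1, the antizyme that inhibits ornithine decarboxylase, had 18.9% ± 11.4 in Oaz1-207 after IRI and 46.3% ± 3.0 in sham (SD, n = 6 each). Kctd2-201 held 62.1% to 76.4% after IRI and 78.8% to 87.8% in sham. Mthfd1, a folate-cycle enzyme, had 72.31% to 89.96% of its sum in Mthfd1-201 after IRI and 91.7% to 96.7% in sham. In these 4 genes the values did not overlap between IRI and sham. The shares of Fmo1-202, Pigq-206 and Mthfd1-207 were higher after IRI by 3.02, 4.90 and 9.26 points on average. Fmo1-202 itself averaged 8.40 FPKM after IRI and 8.86 FPKM in sham, while the gene's sum averaged 137 and 275 FPKM. Pigq-206 lay near the pseudocount, at 0.37 to 1.92 FPKM after IRI and 0 to 0.66 FPKM in sham. It averaged 0.79 FPKM after IRI and 0.19 FPKM in sham. Only its injured libraries thus met the group mean of 0.5 FPKM that every deposited row reached, and its higher share is only a description. In Tspan9-201, of a tetraspanin gene, the shares were 13.2% to 19.3% after IRI and 4.10% to 9.28% in sham. For Spp1, Cyb5r3, Anxa2 and Col18a1 the transcript of smallest p had a mean share under 3% in both groups.

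Gpx3, the targeted gene, kept one leading transcript throughout. Gpx3-201 held 93.7%, 98.1% and 99.5% in CKO IRI 7, 15 and 29 and 99.3%, 95.1% and 89.5% in WT IRI 13, 24 and 49. In sham it held 87.2%, 97.7% and 99.0% in CKO 1, 2 and 3 and 92.4%, 93.0% and 91.5% in WT 1, 2 and 3. The groups overlapped, and the difference of 2.41 points had an unadjusted limma p of 0.257. These shares check no label.

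The 36 genes whose shares did not overlap by library and differed by at least 10 points covered several cellular roles. They were chosen for this pattern, so their values are a description. The widest shifts beside the called genes were in Limch1, an actin-associated protein gene, where Limch1-201 held 0 to 60.9% after IRI and 64.0% to 98.3% in sham, and in Kcmf1, a ubiquitin ligase gene, where Kcmf1-204 held 29.8% to 64.3% after IRI and 4.45% to 28.9% in sham. Ythdf2, which encodes a reader of methylated adenosine in messenger RNA, had 33.3% to 59.2% of its sum in the short Ythdf2-201 after IRI and 6.16% to 31.2% in sham. Rbpms-203, of an RNA-binding protein gene, held 9.95% to 19.5% after IRI and 26.3% to 59.5% in sham. The splicing factor gene Srsf5 had 30.6% to 61.4% in Srsf5-205 after IRI and 21.6% to 28.9% in sham.

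Further members were genes of transport and metabolism, and bulk tissue does not place their transcripts in a cell type. Kcnk1-202, of a potassium channel gene, held 15.3% to 42.9% after IRI and 47.2% to 54.1% in sham. Ggt1-201, of the brush-border gamma-glutamyltransferase gene, held 17.1% to 44.4% after IRI and 13.8% to 16.3% in sham. The liver X receptor gene Nr1h3 had 4.76% to 18.8% in Nr1h3-201 after IRI and 19.7% to 31.6% in sham. Pccb, a subunit of propionyl-CoA carboxylase, had 51.6% to 77.7% in Pccb-201 after IRI and 79.2% to 91.9% in sham. In each of these 4 genes the margin between the groups was narrow next to their ranges. Of the 36 genes, 20 (55.6%) were also called at gene level, against 1249 of the 3615 tested genes (34.6%). Over all 12469 genes tested for their sums, 2927 (23.5%) rose and 1290 (10.3%) fell, 33.8% together; after quantile normalization 2010 rose and 1989 fell, and the share of rises was 50.3%, against 69.4% as deposited.

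**Figure D4:**
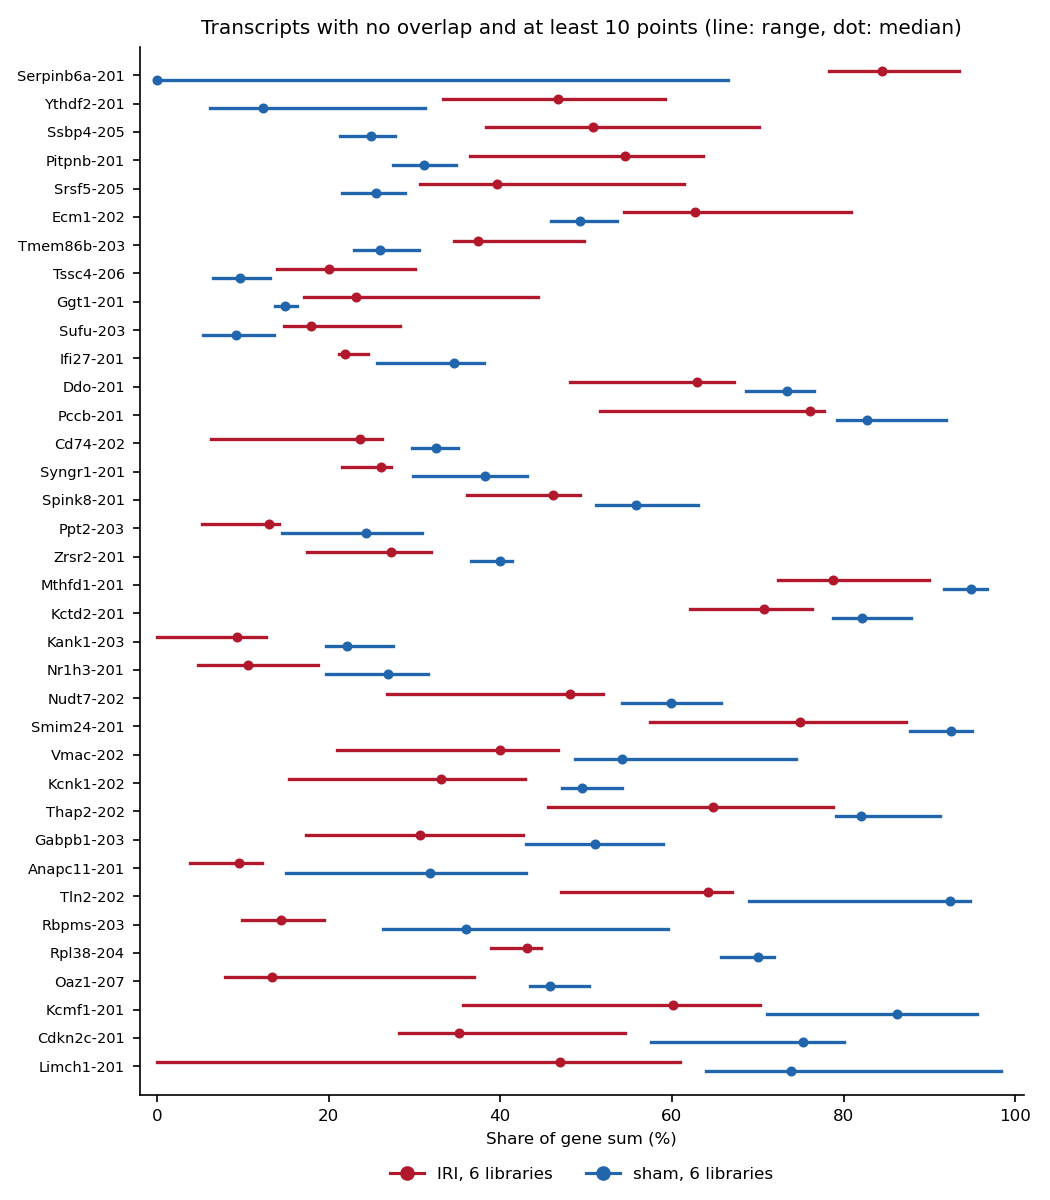
For each of the 36 genes the transcript with the largest difference is shown, as the range (line) and median (dot) of its share of the gene sum (%) in the 6 IRI libraries (red, above) and the 6 sham libraries (blue, below). The ranges touch closely in many genes, such as Gabpb1 and Thap2, and lie far apart in Rpl38.

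In Pitpnb, a phosphatidylinositol transfer protein gene chosen after its values were seen, the shift was between alternative coding ends. The first 768 coding bases are shared, and the final coding exons lie at chr5:111385520-111385567 (Pitpnb-201) and chr5:111386503-111386553 (Pitpnb-204) on the plus strand, with the stop codon in capitals.
Pitpnb-201 coding end: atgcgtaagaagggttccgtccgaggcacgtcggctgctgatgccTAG
Pitpnb-204 coding end: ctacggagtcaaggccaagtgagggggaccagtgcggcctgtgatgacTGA
Pitpnb-201 held 53.1%, 36.5% and 49.1% in CKO IRI 7, 15 and 29 and 63.6%, 55.9% and 57.4% in WT IRI 13, 24 and 49. In sham it held 31.6%, 27.7% and 34.8% in CKO 1, 2 and 3 and 27.6%, 33.6% and 30.6% in WT 1, 2 and 3. All injured libraries were higher, CKO IRI 15 by a small margin. The difference of 21.6 points had a limma adjusted p of 0.0663, while the gene's sum was 40.5 ± 7.2 FPKM after IRI and 33.4 ± 1.3 FPKM in sham (SD, n = 6 each).

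The annotated structures of the transcripts that gained and lost most were compared within each gene. Start sites lay more than 100 bases apart in 17 of the 36 genes (47.2%), against 55.0% of 3609 tested genes, and ends in 18 of the 36, against 57.0%. Both transcripts had the same coding sequence in 6 (16.7%), against 20.4%. In 7 (19.4%) at least 1 of the pair was annotated with an incomplete end, against 26.1%. The transcript that gained was the longer in 17 (47.2%), against 48.9%. These shares lay near those of all tested genes for the starts, the ends and the length.

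Which transcript led a gene was unstable between replicates as well as between groups. The transcript of highest mean share after IRI differed from that in sham in 329 genes (9.1%). Only in Spink8, a Kazal-type protease inhibitor gene, did 1 transcript lead in every injured library and the other in every sham library. Spink8-202 held 50.7% to 63.8% after IRI and 37.0% to 48.8% in sham, on both sides of an even split. The leading transcript differed among the 3 replicates of CKO IRI in 753 genes, of WT IRI in 909, of CKO sham in 772 and of WT sham in 692. In 2168 genes 1 transcript led in all 12 libraries.

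Gene lists for the kidney and for splicing were described by counts, beside 894 of 3615 tested genes (24.7%) with a transcript at an unadjusted p under 0.05 and a median largest difference of 4.41 points. Cell cycle genes held the only called member of any list, Cdkn2c, and 6 of 12 had such a p, with a median of 2.96 points. Of the tubular injury markers 8 of 13 (61.5%) had such a p with a median of 3.27 points, none was called, and 12 of the 13 rose at gene level. Of the proximal tubule genes 11 of 24 (45.8%) had such a p with a median of 1.62 points, while 18 fell and 1 rose at gene level. In both lists the share of members with such a p was above that of all tested genes and the median difference below it. For a transcript near the pseudocount of 0.5 FPKM the tested log ratio also moves with the gene's sum. How many of these p rest on that was not tested, so the counts are no measure of isoform change. The leading transcript changed in 1 of the 24 proximal tubule genes and in none of the 13 injury markers, against 329 of all 3615 tested genes (9.1%). Lists this small cannot be set apart from that share. At gene level 852 of all 3615 tested genes rose and 397 fell. The gene-level counts of the lists are as deposited, where rises made up 69.4% of the changes over all genes, against 50.3% after quantile normalization.

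The regulators of splicing had no called member. Of the SR proteins and their kinases 3 of 11 (27.3%) had such a p, with a median of 6.38 points, and Srsf5 was the only one without overlap. Of the hnRNP proteins and other splicing regulators 10 of 28 (35.7%) had such a p, with a median of 4.56 points. At gene level 16 of the 28 rose and none fell, against 852 and 397 of all 3615 tested genes. Of the genes known for isoforms that differ between epithelial and mesenchymal cells 7 of 17 (41.2%) had such a p, with a median of 5.44 points, and none was called. Of the tropomyosins, actinins and myosin chains it was 7 of 14, with a median of 6.25 points. Ribosomal and translation genes, a list without Rpl38, had such a p in 12 of 36 (33.3%) with a median of 3.30 points, and 29 rose at gene level.

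In the other lists no gene was called. Of the antioxidant and glutathione genes 5 of 21 (23.8%) had such a p, with a median of 3.19 points. Glycolysis and oxidative metabolism had 10 of 27 (37.0%) with a median of 2.83 points, and genes of the loop and distal nephron 4 of 19 (21.1%) with 4.16 points. Apoptosis genes had 4 of 9 (44.4%) with 8.25 points, and matrix and fibroblast genes 3 of 8 (37.5%) with 5.46 points. Immune genes had 3 of 8 (37.5%) with 4.94 points, and endothelial and podocyte genes 4 of 7 (57.1%) with 4.54 points.

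A few genes showed an IRI against sham difference that itself differed between the genotype labels, which the level of Gpx3 did not bear out after IRI. The interaction of genotype and injury was called for 7 transcripts (0.0607%) in 5 genes (0.138%), Ankrd17, Arhgef3, Mtfr1, Ubtf and E2f5, with 959 transcripts at an unadjusted p under 0.05. In each of them 1 group of 3 libraries stood apart. Ankrd17-201 held 0.71%, 7.32% and 2.86% in CKO IRI 7, 15 and 29, 100%, 100% and 95.1% in WT IRI 13, 24 and 49, and between 1.31% and 3.31% in the 6 sham libraries. WT IRI stood apart from the other 9 libraries, while the CKO IRI libraries were led by 3 different transcripts, and the interaction was -94.6 points (limma adjusted p = 0.000627).

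Arhgef3 had 14.98% to 26.18% of its sum in Arhgef3-202 in CKO IRI, 96.0% to 98.9% in WT IRI, 13.3% to 14.3% in CKO sham and 13.9% to 25.5% in WT sham. Mtfr1-203, of a mitochondrial fission regulator gene, was listed at 0 in all libraries but WT sham 1, 2 and 3, where it held 65.8%, 64.5% and 65.0%. Ubtf, which encodes a transcription factor for ribosomal RNA genes, had 44.6% to 51.8% in Ubtf-204 in CKO IRI, 3.02% to 3.52% in WT IRI and 3.72% to 7.56% in sham. E2f5-202, of a cell cycle transcription factor gene, held 49.02%, 29.13% and 39.36% in WT sham 1, 2 and 3 and under 1% elsewhere. Of these 5 genes only Ubtf (1 of 5, 20%) was called at gene level between IRI and sham, with 38.5 FPKM after IRI and 30.2 FPKM in sham on average. Without WT IRI 49 the interaction count was 25 transcripts, and with a gene minimum of 20 FPKM it was 1.

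**Figure D5:**
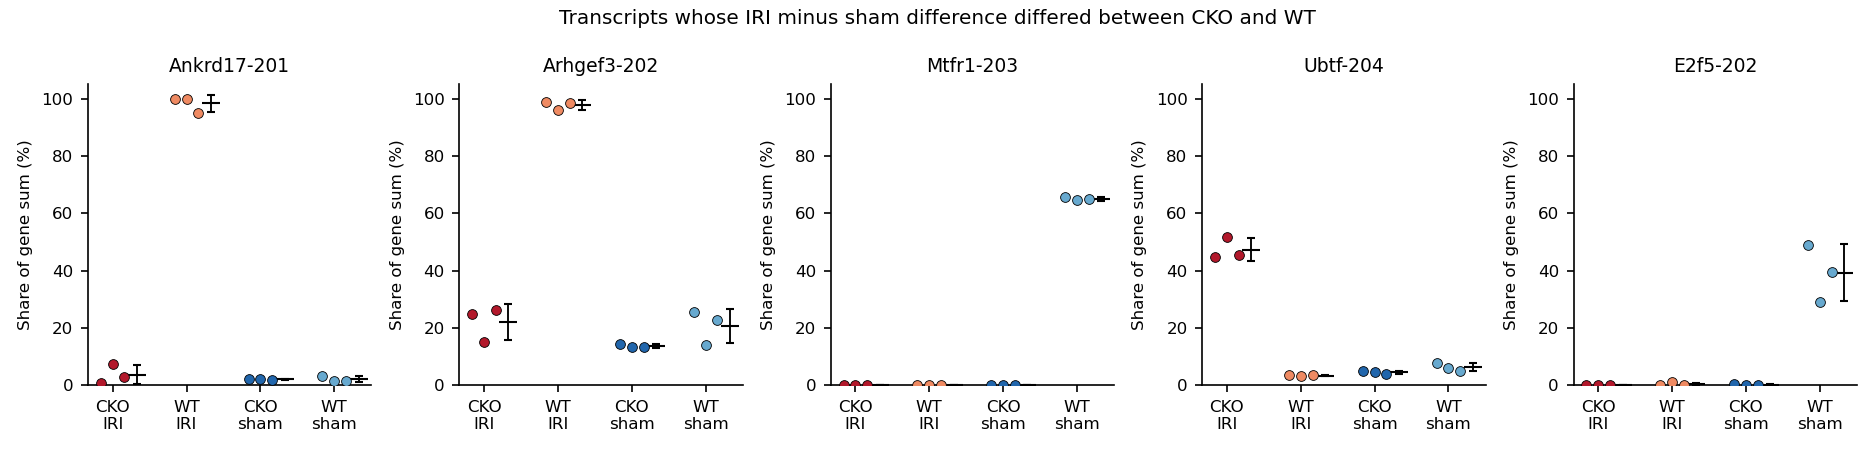
Shares of the gene sum (%) by library are shown for 1 transcript of each of the 5 interaction genes, with the mean and SD of each group of 3. In each panel 1 group stands apart from the other 9 libraries: WT IRI for Ankrd17 and Arhgef3, WT sham for Mtfr1 and E2f5, and CKO IRI for Ubtf.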

How the data were processed

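RNA from 12 mouse renal cortex libraries (3 in each of CKO IRI, WT IRI, CKO sham and WT sham) was analysed from 1 deposited table of 25790 transcripts. The submitters' processing notes list HISAT2 2.1.0 as well as StringTie and cutadapt, and name GRCh38, although the identifiers are mouse. The deposited values were read as FPKM made by the authors, since the header names no unit. TPM would differ by 1 factor per library, which cancels in shares. It would not cancel in the gene minimum, in the pseudocount behind the calls or in the test of gene sums. The tissue field of the labels reads kidney, while joint capsule appears in the protocol for RNA extraction. Every row averaged at least 0.5 FPKM in some group, and nearly all tested transcripts (11505) were annotated as protein coding, so rarer and non-coding isoforms were not analysed here. Depth is unknown, so no interval for counting error is given.

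Identifiers were matched without version to GENCODE M21 (GRCm38); 50 without a match were left out. For each transcript log2((FPKM + 0.5)/(FPKM of the rest of the gene + 0.5)) was fitted in limma 3.58.1 (R 4.3.3) with genotype and injury and a variance trend, two-sided, with Benjamini-Hochberg adjustment over all 11532 transcripts. The interaction used 4 group means. Gene sums were tested as log2(FPKM + 1) in 12469 genes with at least 1 FPKM in 3 libraries. The 2 shares of a 2-transcript gene mirror each other. Splitting of reads between overlapping transcripts and near-identical gene copies by StringTie is an estimate that the table does not qualify.

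On simulated data for IRI against sham, 200 of 3615 genes were changed, all of them genes with a dominant transcript that lost share to the next. The fit found 22% of the 50 genes shifted by 10 points, 66% of those at 20, 78% at 30 and 78% at 40, and 10 of 132 called genes were false. Noise was drawn independently for each transcript, so linked swaps between replicates, as seen in Ldha, were not modelled. These rates may therefore not hold for the real libraries. Named genes were Gpx3 and, since fewer than 20 genes were called, the 20 of smallest p; the others named were chosen after their values were seen. Members and lists were chosen with earlier results of these data known. Alternatives were other pseudocounts, gene minimums, scales, weights, diffSplice, single genotypes and leaving out each library.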

Additional observations from a re-analysis of the deposited data

Results flagged for a closer look

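Among the named transcripts, 46 groups of 6 libraries were screened for a single library far from the others, and 5 were marked, where chance alone marks about 1 in 20. Serpinb6a-201 in WT sham 1 held 66.5% of its gene, where the other sham libraries held 0 to 7.40%. The other 4 were in transcripts of small share in the IRI group. Col18a1-203 held 2.07% in CKO IRI 7 and 0.59% to 1.04% in the other injured libraries. S100a6-203 held 1.48% in WT IRI 13 and 0.36% to 0.74% elsewhere in the group. Anxa2-204 held 0.88% in CKO IRI 15 and 0.25% to 0.49% in the others, and Gpx3-202 held 0.75% in WT IRI 49 and 0.02% to 0.24% in the others.

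The difference between IRI and sham itself differed between the genotype labels, by limma's interaction test, in 7 transcripts. Given as the IRI minus sham difference in CKO less that in WT, it was -94.6 points for Ankrd17-201, 58.4 points for Arhgef3-201 and -68.8 points for Arhgef3-202. It was 65.1 points for Mtfr1-203, 45.6 points for Ubtf-204, -38.7 points for E2f5-201 and 38.7 points for E2f5-202.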

How the results depend on the processing

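Beside 5 transcripts in 3 genes called between IRI and sham, the counts were 27 in 18 with a pseudocount of 1, 45 in 31 with 2, 43 in 32 without a gene minimum, and 13 in 10, 17 in 12 and 13 in 9 with minimums of 2, 10 and 20 FPKM. They were 9 in 6 on raw shares, 7 in 5 on arcsine shares, 88 in 67 with diffSplice, 33 in 22 with array weights, 53 in 34 in WT alone, 7 in 6 in CKO alone and 13 in 7 on the adjusted p alone. Leaving out 1 library gave 4 to 25 transcripts in 2 to 17 genes, with the highest counts without CKO sham 1. Without CKO sham 1 and WT IRI 13 together, an alternative chosen after seeing the data, there were 15 in 10. Genes with a changed leading transcript numbered 818 without a minimum and 512, 182 and 87 with minimums of 2, 10 and 20 FPKM. Interaction transcripts numbered 11 without a minimum and 1 at 20 FPKM, and 9 to 25 with 1 library left out. The causes were not tested.

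Rpl38-204 was called in 32 of 33 settings, missing only in CKO alone, Cdkn2c-202 in 28 of 31 (not without a genotype term or in either genotype alone), Serpinb6a-201 in 28 of 32 and Rpl38-201 in 27 of 33; none changed sign. Over the single transcripts named, 677 results stayed on the same side of the threshold, 46 moved inside it, 17 moved outside it and none reversed. At gene level 2927 genes rose and 1290 fell, a share of 69.4% higher; after quantile normalization it was 50.3%, and the median log2 change of all genes moved from 0.10 to -0.03. No paired analysis was possible because IRI and sham libraries share no replicate numbers. The unknown depth, 3 libraries per group and transcript levels estimated from short reads limit all differences between shares.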

Other observations

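Beyond the interaction calls, a few genes chosen after their values were seen had a transcript whose share in 1 group lay at least 30 points from all 9 other libraries. Ddx6, an RNA helicase gene of messenger RNA turnover, was wholly in Ddx6-201 in the 3 WT IRI libraries, at 100%, against 0 to 41.3% elsewhere. Epb41l5-201, of a membrane-cytoskeleton linker gene, held 46.6% to 51.1% in WT IRI and 3.84% to 10.99% elsewhere. Rexo4-201 held 41.0% to 62.5% in WT IRI and 0.02% to 10.8% elsewhere. Ctps2-201, of a CTP synthase gene, held 98.9% to 99.9% in CKO sham and 6.90% to 43.8% elsewhere. Counted over all tested genes, such genes numbered 1 in CKO IRI, 5 in WT IRI, 1 in CKO sham and 1 in WT sham. The counts include the interaction genes Ubtf in CKO IRI, Ankrd17 and Arhgef3 in WT IRI and Mtfr1 in WT sham. These values have no test of their own.

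In Ldha, 2 of the injured libraries stood apart. Ldha-201, of lactate dehydrogenase A, held 85.7%, 8.55% and 85.4% in CKO IRI 7, 15 and 29, 92.0%, 0% and 87.7% in WT IRI 13, 24 and 49, and 81.4% to 86.8% in the 6 sham libraries. The gene's sum in CKO IRI 15 and WT IRI 24 was 267 and 366 FPKM, just below and just above the other injured libraries (298 to 339 FPKM). Pkm-201, of pyruvate kinase, held 76.1% to 91.1% after IRI and 70.8% to 89.1% in sham, with overlap. Keap1-201, of the sensor of electrophilic stress, held 16.5% to 29.6% in the 6 IRI libraries and 0% to 67.9% in the 6 sham libraries, so it spread most in sham.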
